A study of Mus musculus with 16 samples.

Results

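The genes described here are the 3 ligand genes of the TGF-beta subfamily (*Tgfb1*, *Tgfb2*, *Tgfb3*), the 3 genes of its dedicated receptors (*Tgfbr1*, *Tgfbr2*, *Tgfbr3*) and the 4 genes of the latent TGF-beta binding proteins (*Ltbp1* to *Ltbp4*). They were taken by gene symbol from a table of 35983 genes, in which all 10 were found once each. RNA was sequenced from whole testes of newborn mice on a mixed 129Sv and C57Bl/6J background, in 4 groups of 4 samples, to ask what the loss of *Lrh1* (*Nr5a2*, a nuclear receptor gene) does to gene expression. At postnatal day 1 (P1) the mutants were *Lrh1* flox/-; *Nanos3-Cre*, in which Cre acts in germ cells, and the controls were *Lrh1* flox/- without Cre, so both P1 groups carried one null allele in every cell. At postnatal day 3 (P3) the mutants were *Lrh1* flox/flox; *Dhh-Cre*, in which Cre acts in Sertoli cells from fetal life, and the controls were *Lrh1* flox/flox without Cre.

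TGF-beta proteins are made as precursors that stay bound to their own propeptide, a form that cannot reach the receptors. Inside the cell this latent complex is joined to a latent TGF-beta binding protein (LTBP), which carries it to fibrillin and fibronectin fibres of the matrix, where integrins and proteases release the ligand. The free ligand binds the kinase TGFBR2, which activates TGFBR1, and this kinase phosphorylates SMAD proteins that enter the nucleus. In the testis TGF-beta signals are known for loosening the junctions between Sertoli cells, the somatic cells of the tubules that nurse the germ cells. TGFBR3 (betaglycan) is a coreceptor that presents TGF-beta and also binds inhibin, a hormone of Sertoli cells.

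Levels are in FPKM, fragments counted per gene and corrected for its length and for the size of the library, and each is the mean that the authors gave for a group. No values per sample were used, so each mean stands without an SD, no test across samples could be made from them, and the depth of each sample is unknown. Differences are given as log2 ratios of 2 means, or as folds, after adding 0.1 FPKM, which understates the difference of low genes. Genes whose 2 means averaged under 0.5 FPKM were left out, and no difference could be set against the spread between replicates. *Nr5a2* itself was low in all groups, with authors' means of 0.764 FPKM in P1 controls, 0.491 in P1 mutants, 1.15 in P3 controls and 0.609 in P3 mutants. Of 10 Sertoli cell markers (*Sox9*, *Amh* and others) 9 passed the minimum at P3. All 9 were at least 1.5-fold lower in *Dhh-Cre* mutants, against 8.33% of all genes. The means of the 10 summed to 1273 FPKM for controls and 454 FPKM for mutants. In whole testes fewer cells of a type and less RNA per cell cannot be told apart.

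Of the ligand genes, *Tgfb2* differed most at P3. Its mean was 8.74 FPKM in P3 controls and 30.5 FPKM in *Dhh-Cre* mutants, a log2 ratio of 1.79 (3.46-fold), place 92 from the top among the 16923 genes measured at P3. At P1 the means were 11.8 FPKM in controls and 14.8 FPKM in *Nanos3-Cre* mutants (log2 ratio 0.33). The P3 mutant mean was thus the highest of the 4 and the P3 control mean the lowest. *Tgfb3* had a mean of 22.1 FPKM in P3 controls and 37.3 FPKM in mutants (log2 ratio 0.75), against 16.2 and 19.5 FPKM at P1 (log2 ratio 0.27). *Tgfb1*, the ligand best known from blood platelets and immune cells, was the lowest ligand in every group. Its means were 3.49 and 3.88 FPKM at P3 (log2 ratio 0.15) and 3.32 and 4.18 FPKM at P1 (log2 ratio 0.32), so that it was the 1 ligand with a larger ratio at P1 than at P3.

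**Figure D1:**
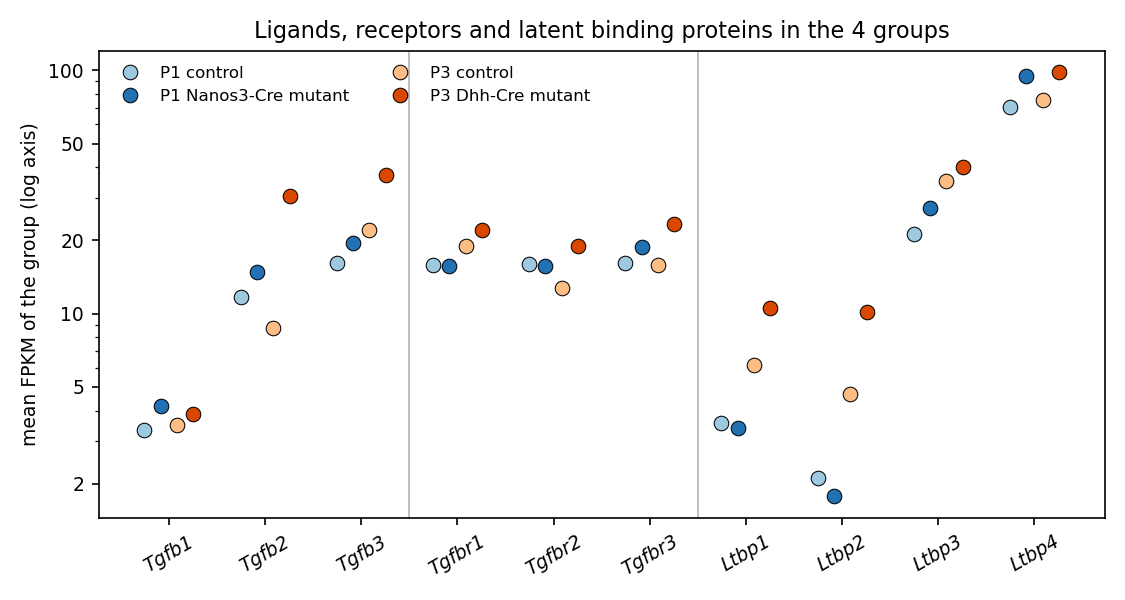
Mean FPKM (log axis) of the 10 genes in the 4 groups, 1 point per group mean with no error available, in the order ligands, receptors and latent binding proteins. The P3 *Dhh-Cre* mutant mean (dark orange) is the highest of the 4 for 9 genes, all but *Tgfb1*, and *Tgfb2* runs from 8.74 FPKM in P3 controls to 30.5 FPKM in P3 mutants.

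Summed over the 3 ligand genes, the mean was 34.3 FPKM in P3 controls and 71.6 FPKM in *Dhh-Cre* mutants, 2.09 times the control level. The mix of ligands differed as well. *Tgfb2* made up 25.5% of the sum in P3 controls and 42.5% in mutants, while *Tgfb3* went from 64.3% to 52.0% and *Tgfb1* from 10.2% to 5.41%. At P1 the sums were 31.3 FPKM in controls and 38.5 FPKM in *Nanos3-Cre* mutants, with *Tgfb2* at 37.6% and 38.5%. The P1 groups thus differed in the sum and hardly in the mix.

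**Figure D2:**
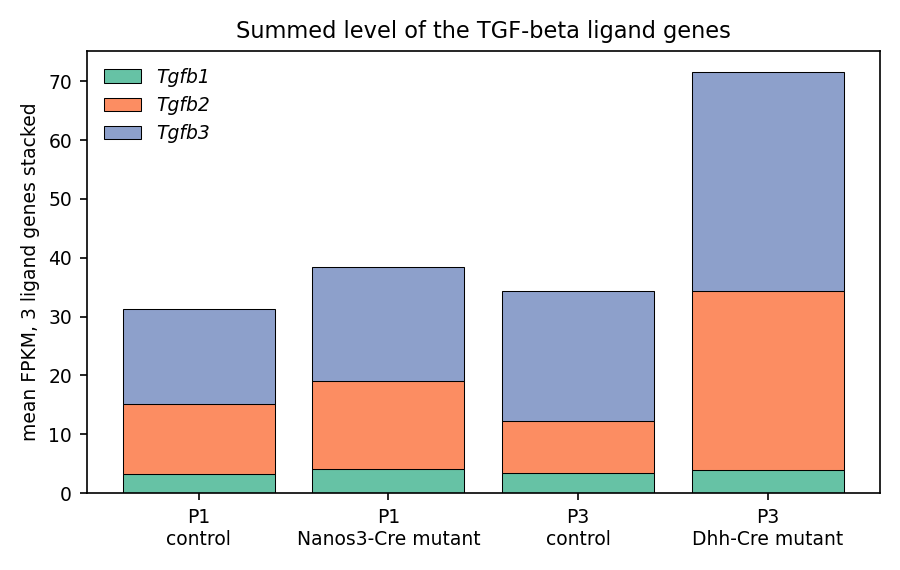
Mean FPKM of *Tgfb1*, *Tgfb2* and *Tgfb3* stacked for each of the 4 groups, on an axis that starts at 0. The stack reaches 71.6 FPKM in P3 *Dhh-Cre* mutants and lies between 31.3 and 38.5 FPKM in the other 3 groups, and the *Tgfb2* layer is the one that differs most.

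The start region of *Tgfb2* is shown with those of *Tgfb1*, the ligand that differed least at P3, and of *Ltbp2*, the other gene of the 10 past a 2-fold difference there. Each line is the 250 bases before the annotated start of transcription, 5′ to 3′ on the strand of the gene, from RefSeq on GRCm38.p6. Capitals mark the SMAD motif CAGAC on either strand (GTCTG on the other), the TATA motif TATAAA and the E-box CACGTG. The windows are chr1:186705990-186706239 on the minus strand for *Tgfb2*, chr7:25686752-25687001 on the plus strand for *Tgfb1* and chr12:84876492-84876741 on the minus strand for *Ltbp2*.
Tgfb2: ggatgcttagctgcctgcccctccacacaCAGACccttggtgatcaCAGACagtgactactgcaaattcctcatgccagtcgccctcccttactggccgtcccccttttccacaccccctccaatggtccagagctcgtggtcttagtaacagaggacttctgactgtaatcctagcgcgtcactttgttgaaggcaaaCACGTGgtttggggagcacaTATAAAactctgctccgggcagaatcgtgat
Tgfb1: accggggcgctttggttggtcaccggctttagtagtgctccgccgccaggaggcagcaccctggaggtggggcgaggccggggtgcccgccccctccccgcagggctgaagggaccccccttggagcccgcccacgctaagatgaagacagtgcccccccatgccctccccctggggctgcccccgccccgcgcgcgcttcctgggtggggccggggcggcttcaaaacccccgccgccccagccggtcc
Ltbp2: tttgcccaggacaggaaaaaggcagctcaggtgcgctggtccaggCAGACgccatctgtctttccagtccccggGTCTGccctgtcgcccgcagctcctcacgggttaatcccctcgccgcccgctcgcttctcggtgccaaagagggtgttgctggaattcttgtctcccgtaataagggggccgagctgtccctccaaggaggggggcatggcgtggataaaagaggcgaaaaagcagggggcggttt

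The *Tgfb2* line holds CAGAC at 221 and at 204 bases before the start, CACGTG at 51 and TATAAA at 31 bases before it, with no overlap between them. In windows that also take in the first 50 bases of the transcript, 12 windows were found for 8 of the 10 genes, and none for *Tgfb3* and *Tgfbr3*. CAGAC was in 7 of the 12 windows on either strand, against 49.6% of all 32851 windows of this length, so that its presence sets no gene apart. The motif AAGGTCA of the NR5A receptors, the family of LRH1, was in 0 of the 12 on either strand and in 4.72% of all windows, and nothing about LRH1 follows from letters missing in so short a stretch. TATAAA and CACGTG were each in 1 of the 12, the *Tgfb2* window, and in 13.6% and 7.15% of all windows on either strand. The GC content was 54.3% in the *Tgfb2* window, 61.0% in that of *Ltbp2* and 77.0% in that of *Tgfb1*, with a median of 52.7% over all windows. These matches describe the sequence and are not known sites.

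The receptor genes were at similar levels to each other and, at P3, had smaller ratios than *Tgfb2* and *Tgfb3* but larger ones than *Tgfb1*. *Tgfbr2*, the gene of the kinase that binds the ligand, had means of 12.8 FPKM in P3 controls and 19.0 FPKM in *Dhh-Cre* mutants (log2 ratio 0.57), and 15.9 and 15.7 FPKM at P1 (log2 ratio -0.03). *Tgfbr3*, the betaglycan gene, had 15.8 and 23.4 FPKM at P3 (log2 ratio 0.57), and 16.1 and 18.8 FPKM at P1 (log2 ratio 0.22). *Tgfbr1*, the gene of the SMAD kinase, had 19.0 and 22.0 FPKM at P3 (log2 ratio 0.21), and 15.8 and 15.7 FPKM at P1 (log2 ratio -0.01). In P1 controls the 3 receptor means lay within 15.8 and 16.1 FPKM, and in P3 controls *Tgfbr1* stood 1.49 times above *Tgfbr2*. The ratios of *Tgfbr2* and *Tgfbr3* at P3, 1.49-fold and 1.48-fold, lie just short of a 1.5-fold difference. Summed over the 3 receptors the P3 mutant mean was 1.35 times the control mean, less than the 2.09 times of the ligands. An exon of *Tgfbr3* lies within or across the span of the provisional gene model *Gm43422* on the same strand in GENCODE M21. The exons of that model were not compared, and the authors counted reads on M25. Whether reads of *Tgfbr3* were divided or dropped there is thus not known.

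Of the latent binding proteins, the less abundant pair differed at P3. *Ltbp2*, whose protein binds fibrillin but not the latent ligand, had means of 4.66 FPKM in P3 controls and 10.2 FPKM in *Dhh-Cre* mutants, a log2 ratio of 1.11 (2.17-fold), place 583 from the top. *Ltbp1*, the first of the carriers to be described, had 6.14 and 10.5 FPKM (log2 ratio 0.76, 1.70-fold). At P1 both had slightly lower means in *Nanos3-Cre* mutants, 2.12 and 1.77 FPKM for *Ltbp2* (log2 ratio -0.24) and 3.57 and 3.39 FPKM for *Ltbp1* (log2 ratio -0.07). The abundant pair had smaller ratios at P3. *Ltbp4*, known for its part in elastic fibres, was the highest of all 10 genes in every group, with 75.5 FPKM in P3 controls and 98.4 FPKM in mutants (log2 ratio 0.38), and 70.7 and 94.8 FPKM at P1 (log2 ratio 0.42). *Ltbp3*, a carrier known for its role in bone and teeth, had 35.1 and 40.2 FPKM at P3 (log2 ratio 0.20), and 21.3 and 27.2 FPKM at P1 (log2 ratio 0.35). *Ltbp4* and *Ltbp3* together with *Tgfb1* are the 3 genes whose ratio was larger at P1 than at P3. *Ltbp4* was 16.2 times as high as *Ltbp2* in P3 controls and 9.64 times in mutants.

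**Figure D3:**
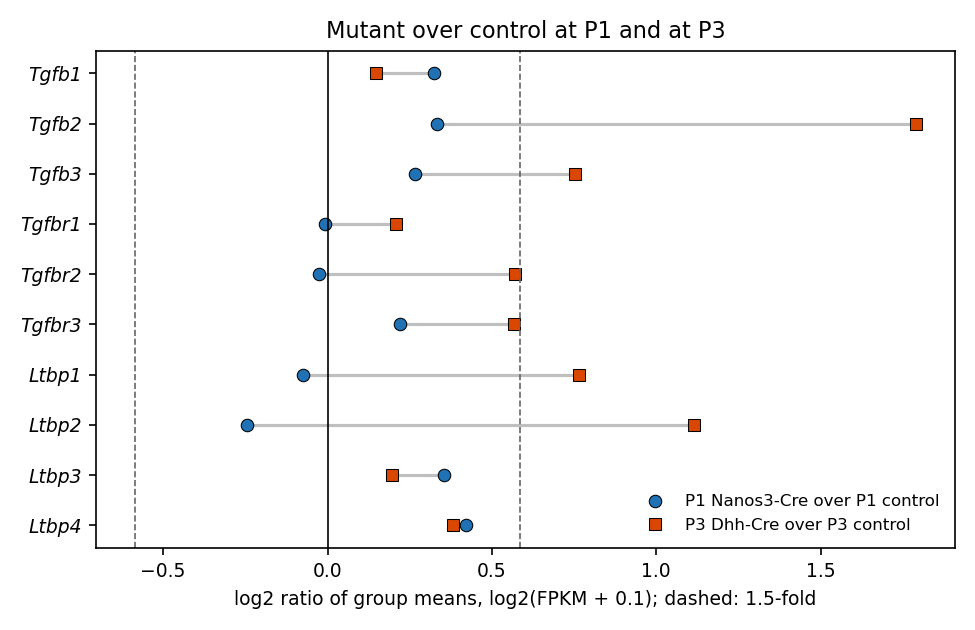
Log2 ratio of mutant over control group means on the log2(FPKM + 0.1) scale for the 10 genes, with P1 *Nanos3-Cre* as circles, P3 *Dhh-Cre* as squares and dashed lines at a 1.5-fold difference. At P3 all 10 squares lie above 0 and 4 lie past the line, with *Tgfb2* at 1.79, and at P1 the circles lie between -0.24 and 0.42.

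Over the 10 genes, all 10 had a higher mean in *Dhh-Cre* mutants than in controls at P3, while 50.2% of the 16923 genes measured did. Of the 10, 4 (*Tgfb2*, *Ltbp2*, *Ltbp1* and *Tgfb3*) were at least 1.5-fold higher, against 12.4% of all genes, and none was 1.5-fold lower, against 8.33%. *Tgfb2* and *Ltbp2* were at least 2-fold higher, which 4.75% of all genes were. The median log2 ratio of the 10 was 0.57, with a range of 0.15 to 1.79, and that of all genes was 0.00. At P1, 6 of the 10 had a higher mean in *Nanos3-Cre* mutants, against 54.5% of the 16121 genes measured, and the median was 0.24 against 0.02 for all genes. None of the 10 differed by 1.5-fold at P1, where 3.17% of all genes were higher and 3.46% lower by that much. The 10 genes were chosen with results of these data known, so these counts are descriptions.

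**Figure D4:**
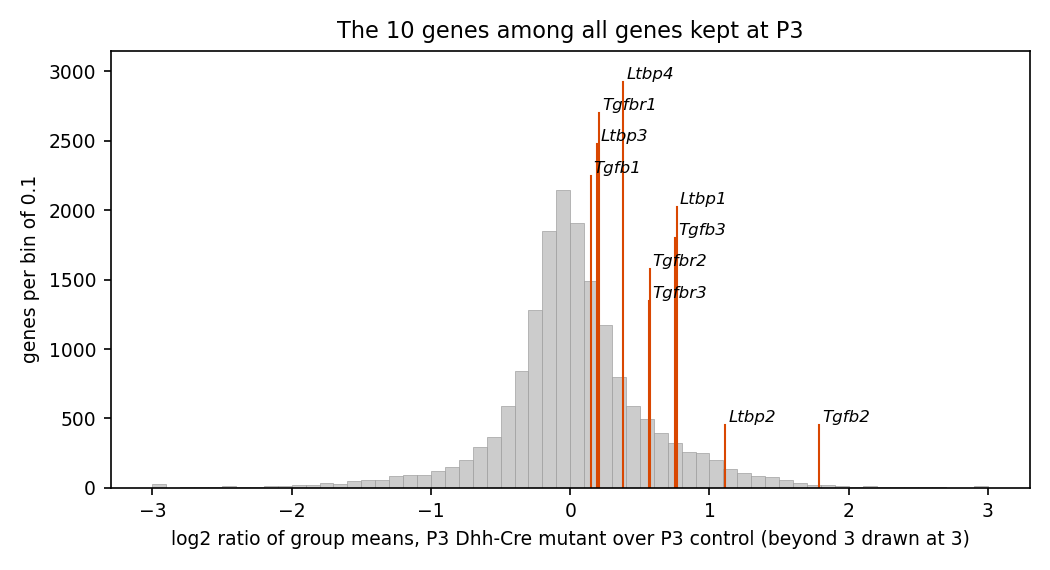
Number of genes per bin of 0.1 in the log2 ratio of P3 *Dhh-Cre* mutants over P3 controls, for the 16923 genes measured, with a vertical line for each of the 10 genes (the heights of the lines carry no value). The lines run from 0.15 (*Tgfb1*) to 1.79 (*Tgfb2*), all to the right of the median of all genes at 0.00.

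FPKM is a value per length, so levels can be ordered between genes. *Ltbp4* was highest and *Ltbp3* next in all 4 groups, and *Tgfb3* had the next mean. In P1 controls *Tgfb3*, *Tgfbr3*, *Tgfbr2* and *Tgfbr1* lay between 15.8 and 16.2 FPKM, and with no spread over samples the order of these 4, the place of *Tgfb3* included, is not known there. *Tgfb2* held place 7 of 10 in the P1 groups and in P3 controls and place 4 in P3 mutants, where it passed all 3 receptor genes. It was 0.553 times the level of *Tgfbr3*, the coreceptor on which TGF-beta 2 is known to depend most, in P3 controls and 1.30 times in P3 mutants.

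Signalling components downstream of the receptors were past 1.5-fold in counts close to the share of all genes, 12.4% higher and 8.33% lower. Of 14 genes of SMADs and their regulators, 5 had a higher and 9 a lower mean in *Dhh-Cre* mutants at P3, with a median log2 ratio of -0.07, 1 gene at least 1.5-fold higher and 2 lower. *Smad7*, the inhibitory SMAD that is itself induced by TGF-beta, had means of 28.5 FPKM in P3 controls and 14.3 FPKM in mutants (log2 ratio -0.99), and 17.5 and 20.6 FPKM at P1. *Tgif1*, a corepressor of SMADs, had 26.1 and 14.7 FPKM (log2 ratio -0.83). *Smad4*, the partner SMAD of all branches, had 31.9 and 29.9 FPKM (log2 ratio -0.09), and *Ski*, another corepressor, 60.5 and 65.7 FPKM (log2 ratio 0.12). *Nedd4l*, a ubiquitin ligase gene that was the 1 gene past 1.5-fold higher, was near the minimum, with 0.368 and 0.633 FPKM. Of 5 genes of accessory receptors, none was past 1.5-fold, and *Acvrl1*, the endothelial receptor kinase ALK1, had 25.6 and 17.5 FPKM (log2 ratio -0.55) beside 13.9 and 15.6 FPKM for its coreceptor *Eng* (log2 ratio 0.16). *Bambi*, a decoy receptor, had 8.31 and 9.91 FPKM (log2 ratio 0.25), and *Cd109*, another inhibitor of the receptors, 0.711 and 1.10 FPKM (log2 ratio 0.56).

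Genes of the matrix around the latent complex had higher means, to very different degrees. All 14 in a list of matrix partners had a higher mean in *Dhh-Cre* mutants, 7 by at least 1.5-fold, against 50.2% and 12.4% of all genes, with a median log2 ratio of 0.63. *Dcn*, the gene of decorin, a proteoglycan that binds TGF-beta, had means of 92.1 FPKM in P3 controls and 237 FPKM in mutants (log2 ratio 1.36). *Dcn* is also among the interstitial mesenchyme markers below. *Fmod*, a related proteoglycan gene, had 18.0 and 46.6 FPKM (log2 ratio 1.37), *Eln*, the elastin gene, 50.1 and 117 FPKM (log2 ratio 1.22), and *Bgn*, the biglycan gene, 123 and 244 FPKM (log2 ratio 0.98). The genes of the fibres named above, fibronectin (*Fn1*) and the fibrillins (*Fbn2* and *Fbn1*), had smaller log2 ratios of 0.09, 0.12 and 0.31. At P1 the median of the list was 0.09 and no gene of it passed 1.5-fold.

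Genes listed around activation of the latent complex, not all of them activators themselves, were past 1.5-fold about as often as all genes. Of 17 measured at P3 out of 18, 11 were higher and 6 lower, 2 and 1 of them by at least 1.5-fold (12.4% and 8.33% of all genes), and the median log2 ratio was 0.22. *Plau*, the gene of the protease urokinase, had means of 2.88 and 5.73 FPKM (log2 ratio 0.97). *Lrrc32*, whose protein GARP tethers latent TGF-beta to the cell surface, had 6.03 and 9.71 FPKM (log2 ratio 0.68). *Mmp9*, the gene of a matrix protease that neutrophils also carry, had 4.04 and 1.63 FPKM (log2 ratio -1.26). The most abundant genes of the list were *Itgb1*, an integrin subunit, with 146 and 164 FPKM (log2 ratio 0.17), and *Mmp2*, a matrix protease, with 65.4 and 83.1 FPKM (log2 ratio 0.35).

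Of 24 genes known to respond to TGF-beta, 18 had a higher and 6 a lower mean in *Dhh-Cre* mutants at P3, with 11 at least 1.5-fold higher (12.4% of all genes), 1 lower (8.33%) and a median log2 ratio of 0.54. *Cdkn1a*, the gene of the cell cycle inhibitor p21, had means of 2.53 FPKM in P3 controls and 8.38 FPKM in mutants (log2 ratio 1.69). *Lox*, the gene of the enzyme that crosslinks collagen, had 40.8 and 102 FPKM (log2 ratio 1.32). The fibrillar collagen genes *Col3a1* and *Col1a1* had log2 ratios of 1.24 and 1.15, with *Col1a1* at 395 and 874 FPKM. Several of these are also general genes of fibroblasts, and 2 of the 24, *Acta2* and *Tagln*, are among the myoid cell markers below. *Fn1* is also in the list of matrix partners, and *Smad7*, *Skil* and *Pmepa1* are in that of SMADs and their regulators. These lists are thus not separate observations. At P1 the median of the list was 0.13.

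**Figure D5:**
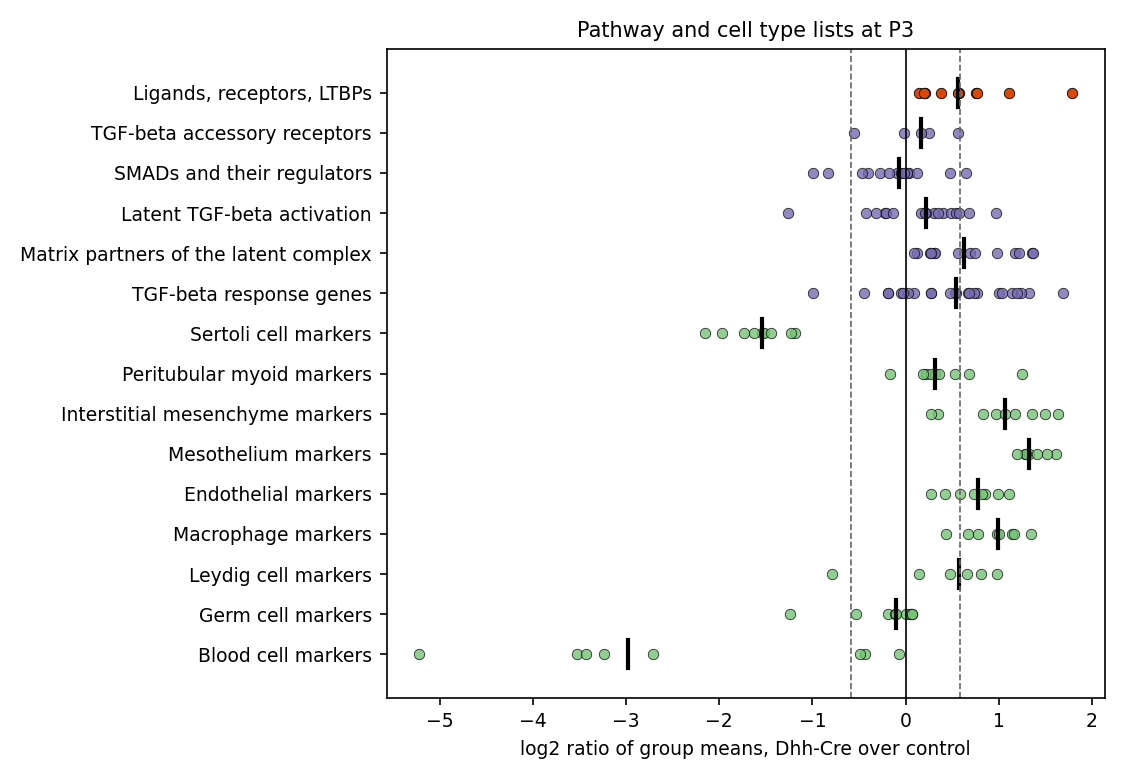
Log2 ratio of group means, P3 *Dhh-Cre* mutants over P3 controls, with 1 point per gene and a black bar at the median of each list and dashed lines at 1.5-fold (orange: the 10 genes; purple: pathway lists; green: cell type markers). The median of the 10 genes is 0.57, those of the matrix and response lists are 0.63 and 0.54, that of the SMAD list is -0.07, and the cell type lists run from -2.98 for blood cells to 1.32 for mesothelium.

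Markers of most cell types outside the tubules had higher means in the same P3 mutants. Of all genes, 50.2% had a higher mean there and 12.4% were at least 1.5-fold higher. All 9 markers of interstitial mesenchyme were higher, 7 by at least 1.5-fold, with a median log2 ratio of 1.07 and sums of 620 FPKM for controls and 1354 FPKM for mutants. All 7 markers of mesothelium were at least 1.5-fold higher, with a median of 1.32 and sums of 40.6 and 106 FPKM. All 8 endothelial markers (5 by at least 1.5-fold, median 0.78, sums 48.5 and 73.3 FPKM) and all 8 macrophage markers (7 by at least 1.5-fold, median 0.99, sums 54.9 and 119 FPKM) were higher, as were 8 of 9 markers of peritubular myoid cells (median 0.31, sums 582 and 715 FPKM) and 5 of 6 of Leydig cells (median 0.57, sums 333 and 545 FPKM). Of all genes, 8.33% were at least 1.5-fold lower, as was the 1 other Leydig cell marker. Germ cell markers had a median of -0.11, with 1 of 9 at least 1.5-fold lower. All 8 blood cell markers were lower, 5 by at least 1.5-fold (median -2.98, sums 363 and 216 FPKM). No marker in these lists was listed at 0 in either P3 group. The log2 ratio of *Tgfb2*, 1.79, was above all markers of these lists, the highest of which was 1.64 in the mesenchyme list. The ratios of *Ltbp2* (1.11), *Ltbp1* (0.76) and *Tgfb3* (0.75) lay within the range of the mesenchyme list, 0.27 to 1.64. The part of these cells in the P3 differences of the 10 genes was not tested.

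At P1 the same lists gave other values. Of all genes there, 54.5% had a higher mean in *Nanos3-Cre* mutants, 3.17% were at least 1.5-fold higher and 3.46% lower. All 8 macrophage markers had a higher mean, 5 by at least 1.5-fold (median log2 ratio 0.61, sums 58.3 and 88.8 FPKM). Of 8 measured germ cell markers 7 had a lower mean, 5 by at least 1.5-fold, and 1 was higher by as much (median -0.70). The higher one was *Nanos3*, after which the Cre driver of these mutants is named, with 1.025 FPKM in controls and 2.114 FPKM in mutants. Whether the driver affects this value was not tested. Of 8 blood cell markers 5 were at least 1.5-fold higher and 3 had a lower mean, none by 1.5-fold. Their summed means hardly differed, with 532 FPKM for controls and 529 FPKM for mutants. Of the mesothelium markers 6 of 7 had a higher mean, 2 by at least 1.5-fold (median 0.34, sums 41.8 and 53.9 FPKM), as did 7 of 9 Sertoli cell markers (median 0.23), while 7 of 9 myoid cell markers had a lower one (median -0.25). The interstitial mesenchyme list had a median of 0.13. The part of these cells in the P1 ratios of *Tgfb1* (0.32), *Ltbp3* (0.35) and *Ltbp4* (0.42) was not tested.

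Between the controls of the 2 ages *Ltbp2* and *Ltbp1* had the largest ratios of the 10 genes, although age, *Lrh1* genotype and RNA input (400 ng in all P3 samples and in 1 of 4 samples of each P1 group, 500 ng in the others) cannot be told apart there. The median log2 ratio of all genes, P3 controls over P1 controls, was 0.15, and ratios are given less this median. They were 0.95 for *Ltbp2*, 0.62 for *Ltbp1* and 0.57 for *Ltbp3*, and -0.05 for *Ltbp4*. By this measure *Tgfb2* stood at -0.57, *Tgfbr2* at -0.47 and *Tgfb3* at 0.30, and with each group scaled to the same sum their ratios were -0.18, -0.08 and 0.69. The small ratios of *Tgfb1*, *Ltbp4* and *Tgfbr3* differed in sign between these scalings, so no direction is given for them. Without the median taken away, 7 of the 10 genes had a higher mean at P3, against 62.2% of all genes, and 3 of the 10 genes were at least 1.5-fold higher at P3, against 18.5% of all 16521 genes, and none 1.5-fold lower, against 10.1%. The P3 controls are shared with the *Dhh-Cre* comparison, so a value of theirs that is off would enter both.

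Across the 4 group means, the genes whose pattern was most like that of each ligand were found among 16670 genes by the Euclidean distance between log2 values after taking away each gene's mean. For *Tgfb2* they were *Pgm5* (distance 0.0916), *Krt19* (0.135) and *Pianp* (0.151), and *Krt19*, a keratin gene of the mesothelium list, had means of 11.7, 15.4, 9.78 and 30.3 FPKM in P1 controls, P1 mutants, P3 controls and P3 mutants. For *Tgfb3* they were *Evpl*, *Fam184a* and *Klf9* (0.0285 to 0.0404), and for *Tgfb1* *Glmp*, *Dsp* and *Abhd15* (0.0340 to 0.0435). Of the other 9 genes, *Tgfb3* was nearest to *Tgfb2*, at a distance of 0.828 and place 814, and *Ltbp3* was nearest to *Tgfb3*, at 0.402 and place 649. A pattern over 4 points holds little information, and many genes come close to it.

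On GRCm38 (GENCODE M21) *Tgfb2* (ENSMUSG00000039239) lies on chromosome 1 from 186622792 to 186705989 on the minus strand, *Tgfb3* (ENSMUSG00000021253) on chromosome 12 from 86056745 to 86079041 on the minus strand and *Tgfb1* (ENSMUSG00000002603) on chromosome 7 from 25687002 to 25705077 on the plus strand. *Ltbp2* (ENSMUSG00000002020) lies on chromosome 12 from 84783212 to 84876532 on the minus strand, *Ltbp1* (ENSMUSG00000001870) on chromosome 17 from 75005568 to 75392512 on the plus strand, *Ltbp3* (ENSMUSG00000024940) on chromosome 19 from 5740904 to 5758532 on the plus strand and *Ltbp4* (ENSMUSG00000040488) on chromosome 7 from 27305136 to 27337692 on the minus strand. The receptor genes are *Tgfbr1* (ENSMUSG00000007613, chromosome 4, 47353222 to 47414931, plus strand), *Tgfbr2* (ENSMUSG00000032440, chromosome 9, 116084293 to 116175360, minus strand) and *Tgfbr3* (ENSMUSG00000029287, chromosome 5, 107106570 to 107289629, minus strand). All 10 are protein coding, and FPKM takes in the whole gene, exons of the untranslated ends included. Exons of *Tgfb2*, *Tgfb3*, *Ltbp2* and *Ltbp3* face a gene on the opposite strand, such as *Gm29491* for *Tgfb2*, *Ttll5* for *Tgfb3* and *D030025P21Rik* for *Ltbp2*, and the authors counted reads by strand.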

How the data were processed

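Stranded mRNA libraries were made from whole testes, 16 samples in 4 groups, and each group was taken from the labels. The authors used cutadapt 1.18 through Trim Galore 0.6.0 for trimming and FastQC 0.11.8 for quality, mapped them with STAR 2.7.2a to GRCm38 (mm10) and counted them by strand on GENCODE M25. The authors averaged FPKM over the samples of a group and deposited these means, and the way library totals entered them is not given in the sources used. The authors' tables of called genes hold log2 fold changes, adjusted p-values and mean counts, and were not used.

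From the means, log2 ratios were computed with 0.1 FPKM added, where the 2 means averaged at least 0.5 FPKM. "Past 1.5-fold" refers to these ratios. The planned limma test needs values per sample and was not run. The SE, SD, depth and duplicated libraries could not be examined in group means.

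The members and lists were chosen with earlier results of these data known. Named genes are the 10, *Nr5a2*, in each of 5 pathway lists up to 3 with the largest P3 ratio in size and up to 2 with the highest mean, and 3 of most like pattern per ligand. *Fn1*, *Fbn1* and *Fbn2* were named besides, as genes of the fibres that hold the latent complex, after their values had been seen. The 9 marker lists are given by counts and sums, and *Nanos3* is named besides, for the Cre driver, after its value had been seen. Promoters and the motifs AAGGTCA and CAGAC were planned, and TATAAA and CACGTG were added after the sequences were seen. The 12 windows of 300 bases run from 250 before to 50 after a start. Of the gene IDs in the table, 99.7% are in M21, whose positions are given. Protein sequences were not analysed here, and 1 gene of the response list is not reported by itself or in the division of that list. The computation was tested on simulated data and used pandas 2.3.3 and numpy 2.4.6 in Python 3.11.15, with plots by matplotlib 3.10.9. Alternatives changed the added FPKM, the minimum, the fold limit and the scaling.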

Additional observations from a re-analysis of the deposited data

How the results depend on the processing

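Of 10 genes, 4 were past 1.5-fold higher at P3 and none lower under each of the other pseudocounts, minimums and scalings tried, and none passed at P1. The fold limit moved these counts, to 7 higher at P3 and 4 at P1 with a smaller fold limit (0.32 in log2), and to 2 at P3 with a limit of 2-fold. Over all genes the main counts were 2106 higher and 1410 lower at P3, and 511 and 557 at P1. They became 1172 and 933 at P3 and 195 and 237 at P1 with 1 FPKM added, 4710 and 3315, and 2410 and 2810 with no minimum, and 1090 and 861, and 141 and 125 at a minimum of 2 FPKM. With the smaller limit they were 3716 and 2946, and 1435 and 1227, and with 2-fold 803 and 606, and 186 and 224. No ratio of the 10 genes changed sign at P3. At P1 the ratios of *Tgfbr1* and *Tgfbr2* became 0.04 and 0.02 when each group was scaled to the same sum. Scaling to the same sum moves the median of all genes between P1 and P3 controls from 0.15 to 0.39, and the ratio of *Tgfbr3* there from -0.03 to 0.21. Less the median of all genes, *Tgfb1* and *Ltbp4* there were -0.08 and -0.05 instead of 0.07 and 0.09. With 1 FPKM added, *Ltbp2* at P3 was 0.99 instead of 1.11, which the added value itself causes. No paired analysis was possible because the values are group means. Leaving out a replicate, the replicate block and the permutation test were planned for values per sample and were not run. No result has an error, and a library that stands apart could not be seen.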

Other observations

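Some of the 24 TGF-beta response genes were divided into matrix genes and early transcriptional responses after their values had been seen. The others are in neither subset, among them *Cdkn1a*, which had the largest P3 ratio of the list. The subsets were picked from seen values, so their contrast is a description and tests nothing. All 9 matrix genes (*Col1a1*, *Col1a2*, *Col3a1*, *Col5a1*, *Lox*, *Postn*, *Tnc*, *Tgfbi* and *Fn1*) had a higher mean in *Dhh-Cre* mutants at P3, 8 by at least 1.5-fold, with a median log2 ratio of 1.04. Of 8 early responses (*Smad7*, *Skil*, *Pmepa1*, *Ccn1*, *Ccn2*, *Junb*, *Bhlhe40* and *Snai1*), 3 had a higher mean, 1 was at least 1.5-fold higher and 1 lower, and the median was -0.12. *Ccn2*, a connective tissue growth factor gene, had means of 72.7 FPKM in P3 controls and 53.2 FPKM in mutants. At P1 the medians of the 2 subsets were 0.17 and 0.18.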
